A study of Mus musculus with 9 samples.

Results

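Complex I (NADH:ubiquinone oxidoreductase) is the entry point for electrons from NADH into the mitochondrial respiratory chain. The genes followed here are its nuclear-encoded subunits, taken as the protein-coding mouse genes whose symbols begin with Ndufa, Ndufb, Ndufc, Ndufs or Ndufv, with the Ndufaf assembly factors left out and with at least 10 counts over the 9 libraries. This gave 38 genes of the 18127 that passed the same count minimum. Of the 38 genes, 36 encode complex I subunits. The other two are Ndufa4, named for complex I and now assigned to complex IV (cytochrome c oxidase), and its paralog Ndufa4l2, known as a gene induced by hypoxia. Every protein-coding gene with such a symbol passed the count minimum, so no member was lost to it.

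RNA-seq was performed on midbrain tissue containing the substantia nigra pars compacta (SNpc) from 4 wild type (DJ-1+/+) and 5 knockout (DJ-1-/-) mice aged 3 to 4 months, with 1 library for each mouse. The knockout mice lack DJ-1, a redox-sensitive protein encoded by Park7, through a targeted allele in the whole animal, on a line backcrossed to C57BL/6, and received no treatment. The libraries (QuantSeq) read a fragment at the 3′ end of each polyadenylated transcript and carried unique molecular identifiers (UMIs), random tags by which PCR copies are counted once. Values are UMI counts, or counts per 1000000 of the library total (cpm), which are not divided by transcript length because a 3′ library reads each transcript once.

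Complex I has a peripheral arm in the mitochondrial matrix and a membrane arm. Electrons enter at the N module at the tip of the peripheral arm, pass along iron-sulfur clusters, and reach ubiquinone in the Q module, while the proximal and distal parts of the membrane arm pump protons. The proton-pumping core subunits are encoded by mitochondrial DNA, and the remaining core subunits and all accessory subunits by nuclear genes that are transcribed separately and imported as proteins. Toxins that lead to inhibition of complex I, such as MPTP and rotenone, damage dopaminergic neurons of the SNpc. Inherited loss of DJ-1 is a cause of early-onset Parkinson disease, and so this enzyme is of interest in DJ-1-/- midbrain.

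Park7, on chromosome 4, was measured first as a check of the genotype labels. It had 132, 105, 113 and 118 counts in wild type mice and 23, 29, 14, 19 and 19 counts in knockout mice, so the genotypes were far apart in every library. Its log2 fold change was -2.71 (edgeR, quasi-likelihood F test, Benjamini-Hochberg adjusted p = 7.39e-08), and it was the 1 gene of 18127 (0.00552%) with an adjusted p under 0.05. Library totals were 841974, 879901, 859549 and 886085 counts in wild type mice and 999042, 1098125, 969376, 967751 and 1026201 counts in knockout mice. The mean total was 1.17 times higher in knockout mice, and no DJ-1+/+ library was as deep as any DJ-1-/- library, so depth and genotype cannot be told apart by splitting the libraries. At these depths 3 counts in a library, the floor used here, correspond to between 2.73 and 3.56 cpm. The floors, and the intervals of shares and of the count ratio given for 1 gene, cover counting error only, while intervals of log2 fold changes include the spread between libraries.

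The range of counts was narrow at its upper end in these files. The highest count of any gene in a library lay between 1040 and 1359, between 11 and 25 genes per library passed 400 counts, and Mbp, the myelin basic protein gene, had a mean of 523 cpm. The elongation factor gene Eef1a1, usually among the most abundant transcripts of any tissue, had a mean of 102 cpm. The complex I subunits sat at the upper end of this range, with a median count at percentile 94.3 of all tested genes. Levels are therefore given as the files hold them, and a fold change between genotypes may be understated for genes in this range. The cause of the narrow range was not tested.

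No nuclear complex I subunit passed the test between wild type and knockout midbrain after adjustment over all genes, and the estimates lay close to 0. The log2 fold change (DJ-1-/- over DJ-1+/+) was above 0 for 28 of the 36 subunits and below 0 for 8, with a median of 0.04. With each library left out in turn, the number above 0 ran from 20 (without DJ-1+/+ replicate 2) to 32 (without DJ-1+/+ replicate 3). Over all tested genes 51.9% were above 0, with a median of 0.01. The edgeR adjusted p was 1.0 for each of the 38 genes. At an unadjusted p under 0.05, which 2.83% of all genes reached, 2 of the 38 passed, namely Ndufb5 and Ndufa4l2. Ndufa4l2 reached the count minimum only through its knockout counts, and among the 36 subunits 1, Ndufb5, passed. DESeq2 also gave 0 of the 38 an adjusted p under 0.05, and 1, Ndufb5, an unadjusted p under 0.05. Ndufb5 and Ndufa4l2 were higher in knockout mice, where 1.57% of all genes passed in that direction and 1.26% in the other. The cpm values of the genotypes overlapped in all 38 genes, whereas 1.25% of all genes did not overlap.

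The intervals of the edgeR fit with TMM factors from all tested genes show how much of a difference in counts these libraries could still hold. They do not cover the choice of scaling, or an understatement of fold changes in the narrow upper range of counts. For 35 of the 36 subunits the 95% interval of the log2 fold change included 0. Leaving aside Ndufs5, which varied far more than the others, half-widths ran from 0.14 to 0.22. The narrowest interval was that of Ndufa12, whose spread lay under counting error, and intervals of such genes may be too narrow. In this fit no bound of the 35 subunits without Ndufs5 went below -0.26 or above 0.38, which is 0.833-fold to 1.30-fold. Direction in so narrow a range depended on the scaling. With TMM factors computed from genes under 50 counts per library, a choice made after seeing the data, 16 of the 36 subunits were above 0, beside 37.6% of all genes, and their median was -0.02 against -0.05 for all genes. Among the 3409 genes with a mean count between those of Ndufs3 and Ndufb8 (97.9 to 256 counts), 43.3% were above 0 and the median was -0.01.

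**Figure D1:**
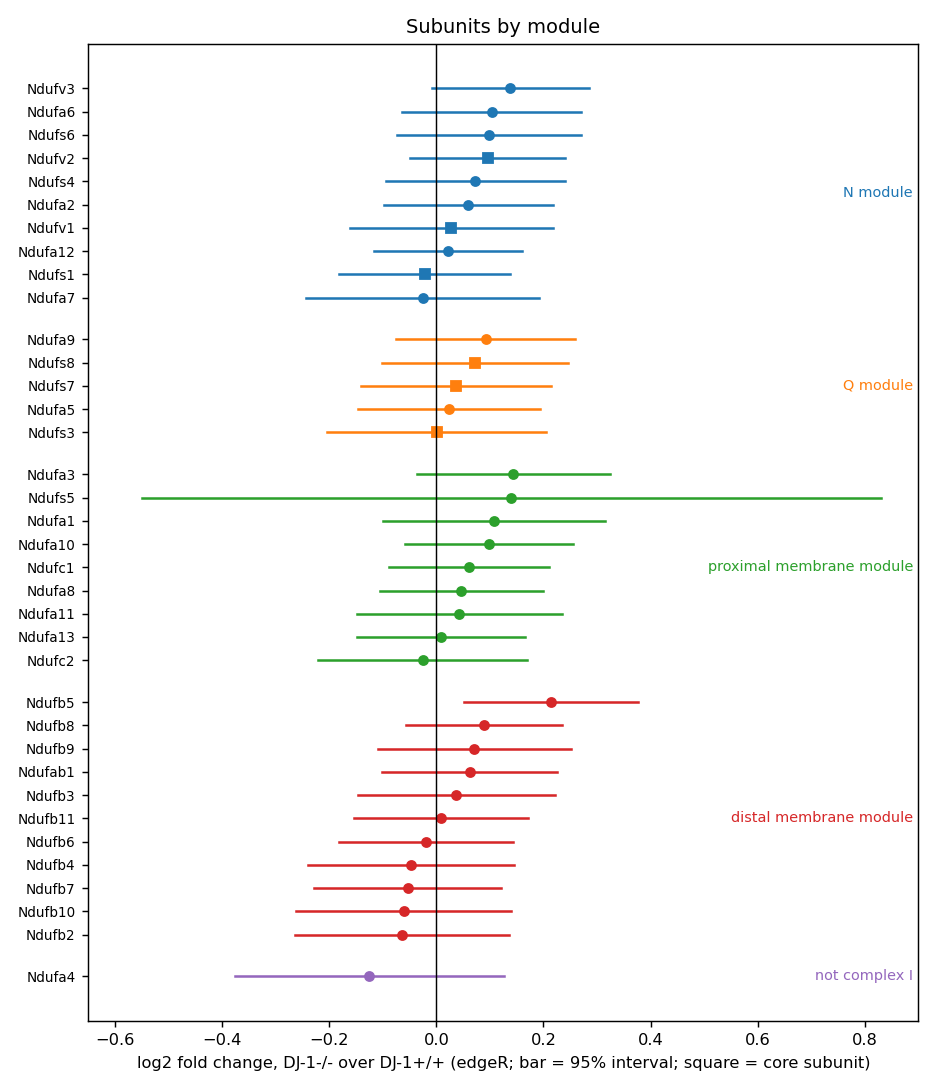
Log2 fold change (x axis, DJ-1-/- over DJ-1+/+) of 36 genes grouped by module (y axis), with bars for the 95% interval from edgeR and squares for core subunits. All points but that of Ndufb5, at 0.21, lie within 0.15 of 0. Only the bar of Ndufb5 does not reach 0, and the bar of Ndufs5 is the widest.

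Expression of the subunits was even across the complex. Mean cpm over the 9 libraries lay between 100 and 200 for 32 of the 36 subunits. Ndufb8, a membrane subunit often used as a marker of assembled complex I, was highest at 270 cpm, and Ndufs5 was lowest at 48.6 cpm, a ratio of 5.54. Against the next lowest gene, Ndufs3, the ratio was 2.61. Of the 35 pairs of neighbours in the order of levels, 4 differed by more than the SD of their difference over the libraries, and these were Ndufb8 over Ndufa5, Ndufa5 over Ndufa10, Ndufc1 over Ndufa13, and Ndufs3 over Ndufs5. All other neighbours did not differ beyond their spread. Because the upper range was narrow, this evenness describes the files and was not tested as a property of the transcripts.

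**Figure D2:**
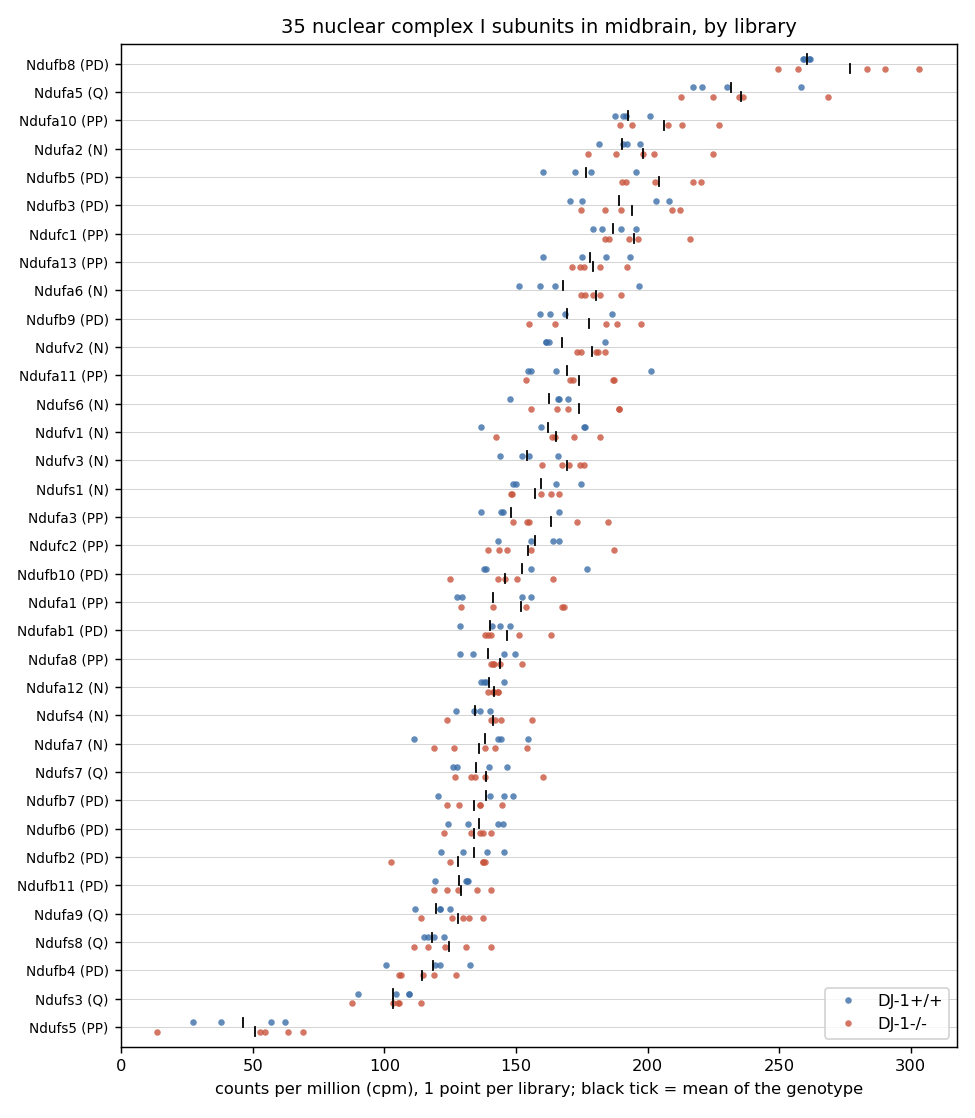
Expression in cpm (x axis) of 35 nuclear complex I subunits (y axis, module in brackets), with 1 point for each library and a black tick at the mean of each genotype. The genotypes overlap in every row, and the points of Ndufs5 spread from 13.4 to 69.1 cpm while those of Ndufa12 form 1 narrow cluster.

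Promoters of these genes are known to bind NRF1, GABP (an ETS factor), YY1 and ERR, the factors that tie respiratory chain genes together. The 250 bases upstream of the transcription start in RefSeq (GRCm38.p6) were searched on both strands in the 32 subunits that have an entry. The NRF1 core GCATGCGC was found in 3 subunits, Ndufa6, Ndufa8 and Ndufa11, which is 9.38% of the 32 beside 4.73% of 11437 tested genes with a window. The ETS core CCGGAAG was found in 3, Ndufb6, Ndufb7 and Ndufs3 (9.38% beside 14.0%). Neither the YY1 core AAGATGG (4.91% of all genes) nor the ERR half-site TCAAGGTCA (0.324%) was found in any of them. A match is a description of the letters and not a binding site. Upstream sequence is shown for an NRF1 match and an ETS match, and for the subunits with the highest and the most variable counts, each on its coding strand, ending before the first annotated exon, with matches in capitals.
Ndufa6, chr15:82354323-82354541, minus strand, NRF1 core: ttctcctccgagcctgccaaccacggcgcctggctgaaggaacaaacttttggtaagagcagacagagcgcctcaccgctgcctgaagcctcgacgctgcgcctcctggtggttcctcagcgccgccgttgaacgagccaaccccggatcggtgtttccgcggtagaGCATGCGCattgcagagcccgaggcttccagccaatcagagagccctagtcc
Ndufb6, chr4:40279422-40279671, minus strand, ETS core on the other strand: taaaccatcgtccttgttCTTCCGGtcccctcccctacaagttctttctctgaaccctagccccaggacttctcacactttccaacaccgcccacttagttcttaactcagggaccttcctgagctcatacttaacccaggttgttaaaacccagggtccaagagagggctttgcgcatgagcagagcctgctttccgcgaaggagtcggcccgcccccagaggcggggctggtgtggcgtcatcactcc
Ndufb8, chr19:44555443-44555692, minus strand, no match: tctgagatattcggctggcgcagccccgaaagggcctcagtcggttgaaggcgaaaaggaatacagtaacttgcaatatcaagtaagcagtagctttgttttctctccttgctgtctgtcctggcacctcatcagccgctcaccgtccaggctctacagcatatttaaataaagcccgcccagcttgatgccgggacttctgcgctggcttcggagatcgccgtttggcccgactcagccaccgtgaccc
Ndufs5, chr4:123718203-123718436, minus strand, no match: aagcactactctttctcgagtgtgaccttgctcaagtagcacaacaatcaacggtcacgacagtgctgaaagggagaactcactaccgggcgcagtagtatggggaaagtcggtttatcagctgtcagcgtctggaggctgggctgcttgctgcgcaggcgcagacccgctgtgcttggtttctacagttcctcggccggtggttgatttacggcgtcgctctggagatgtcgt
The 4 genes did not share a pattern between genotypes, with log2 fold changes of 0.10 for Ndufa6, -0.02 for Ndufb6, 0.09 for Ndufb8 and 0.14 for Ndufs5, and in edgeR's test none had an unadjusted p under 0.05.

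The N module oxidises NADH, and 8 of its 10 genes had a log2 fold change above 0, with a median of 0.07. Ndufv1, which binds the flavin that accepts the electrons, had 148, 155, 137 and 121 counts in wild type mice and 172, 181, 138, 176 and 168 in knockout mice. Its log2 fold change was 0.03, and in cpm the groups overlapped over most of their range. Ndufv2, the neighbouring iron-sulfur subunit, had 136, 143, 158 and 143 counts against 181, 202, 168, 169 and 185 (log2 fold change 0.10). Ndufs1, which carries several iron-sulfur clusters, had 139, 131, 150 and 133 counts against 163, 175, 144, 161 and 152 (log2 fold change -0.02). The raw counts of both genes were mostly higher in the deeper DJ-1-/- libraries, while their cpm values overlapped. Ndufv3, a small accessory subunit of the same tip, reached 154 ± 9.15 cpm (SD, n = 4) in wild type and 170 ± 6.33 cpm (SD, n = 5) in knockout mice. An exact two-sided permutation test of its cpm gave p = 0.0317, and edgeR's test, which shares information on the spread across genes, gave an unadjusted p of 0.0817. The smallest p that 4 mice against 5 allow is 0.00794, and these exact values are not adjusted for the 38 genes. Ndufs4, whose loss in mice causes a Leigh-like encephalopathy, had a log2 fold change of 0.07. Ndufs6, which binds zinc and is needed before the module docks, and Ndufa6, which anchors an acyl carrier protein, had values of 0.10 each.

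Ubiquinone is reduced in the Q module, where all 6 genes had a log2 fold change above 0, between 0.00 and 0.09. Ndufs7, which holds the last iron-sulfur cluster before ubiquinone, had 106, 129, 120 and 113 counts in wild type and 160, 146, 134, 130 and 130 counts in knockout mice. DJ-1-/- replicate 1 was the highest library for Ndufs7, and the log2 fold change was 0.04. Ndufs8, a further iron-sulfur subunit, had 98, 108, 102 and 102 counts against 131, 135, 113, 136 and 114 (log2 fold change 0.07). Ndufs3, a core subunit with no cluster of its own, had 88, 79, 94 and 97 counts against 103, 116, 102, 85 and 117 (log2 fold change 0.00, interval -0.20 to 0.21). Among all 7 core subunits encoded in the nucleus, 6 were above 0 with a median of 0.03, and among the 29 accessory subunits 22 were above 0 with a median of 0.06.

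In the proximal membrane module 8 of 9 genes had a log2 fold change above 0, with a median of 0.06. Ndufa3, a small membrane subunit, was at 0.14 (interval -0.04 to 0.32). Ndufs5, an accessory subunit on the intermembrane-space side, stood apart by its spread. It had 32, 24, 49 and 55 counts in wild type mice and 69, 58, 53, 13 and 65 counts in knockout mice. The low libraries were replicates 1 and 2 of DJ-1+/+ and replicate 4 of DJ-1-/-, so low values occurred in both genotypes. Its coefficient of variation over the 9 libraries was 38.1%, where counting alone gives 14.7%, and the median over the 36 subunits was 7.76%. The log2 fold change of Ndufs5 was 0.14 with an interval from -0.55 to 0.83. Over 200 bases at its 3′ end, Ndufs5 is 99.0% identical to BC002163, annotated as a processed pseudogene, which had between 3 and 5 counts in each library. The low libraries of Ndufs5 did not have high counts of BC002163. The part of this copy, and of reads placed at both genes, in the spread of Ndufs5 was not tested.

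The distal membrane module held the most abundant subunit and the only complex I subunit with an unadjusted p under 0.05, with 6 of its 11 genes above 0 and a median of 0.01. Ndufb8 had 220, 228, 225 and 230 counts in wild type mice and 283, 333, 242, 281 and 264 counts in knockout mice. In cpm this was 260 ± 1.29 cpm (SD, n = 4) and 277 ± 22.6 cpm (SD, n = 5), with a log2 fold change of 0.09 and an unadjusted p of 0.216 in edgeR's test. The 4 wild type values thus lay closer to each other than counting error, which is 6.25% of a value at this depth, would give.

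Ndufb5, an accessory subunit of the same module on chromosome 3, had 145, 157, 168 and 142 counts in wild type mice and 217, 242, 186, 184 and 208 counts in knockout mice. Expression was 177 ± 14.7 cpm (SD, n = 4) and 204 ± 14.0 cpm (SD, n = 5). DJ-1+/+ replicate 3 was above DJ-1-/- replicates 3 and 4, so the genotypes overlapped. The log2 fold change was 0.21 (standard error 0.08, interval 0.05 to 0.38, unadjusted p = 0.0133 and adjusted p = 1.0 in edgeR's test), and an exact two-sided permutation test of the cpm gave p = 0.0476. Without DJ-1+/+ replicate 4 the log2 fold change was 0.17 (edgeR unadjusted p = 0.0645), and with TMM factors from genes under 50 counts it was 0.15 (unadjusted p = 0.117). Ndufb5 overlaps Mrpl47, a mitochondrial ribosomal protein gene on the other strand, by 616 bases, and the use of strand in counting is not given in the sources used here. Mrpl47 had a log2 fold change of 0.14 (edgeR unadjusted p = 0.223). Among the lower genes of the module were Ndufb2 (-0.06), Ndufb10 (-0.06), Ndufb7 (-0.05) and Ndufb4 (-0.05), and each interval included 0.

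**Figure D3:**
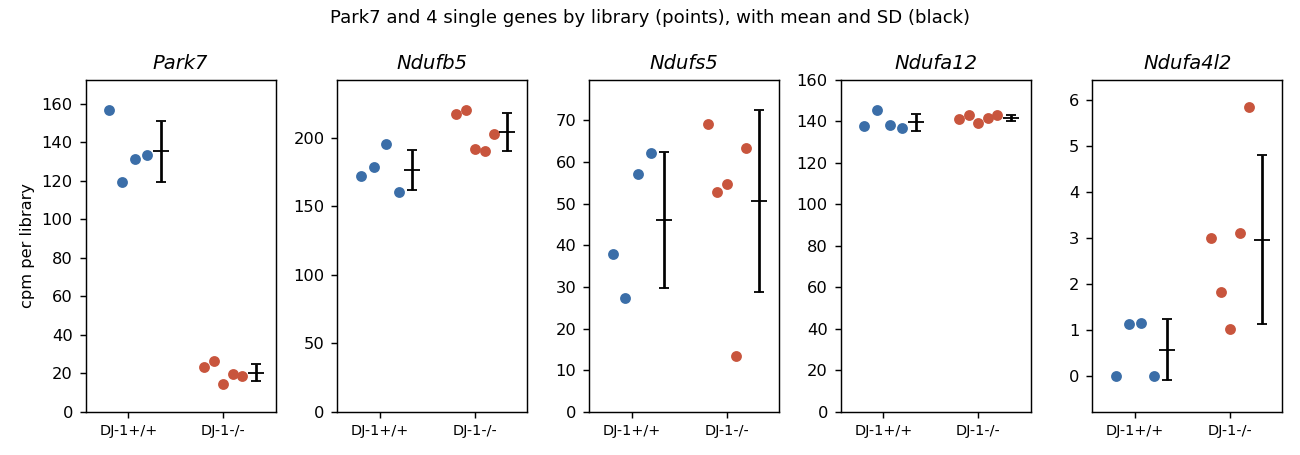
Expression in cpm (y axis, a separate scale for each panel) of Park7 and 4 genes by genotype (x axis), with 1 point for each library and the mean and SD in black. Park7 separates the genotypes, Ndufb5 overlaps between 190 and 196 cpm, Ndufs5 is scattered in both genotypes, and Ndufa12 varies by 2.08% over the 9 libraries.

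Neither gene of the pair outside complex I passed the test after adjustment. Ndufa4 reached 148, 109, 173 and 155 cpm in wild type mice and 154, 135, 129.98, 113 and 138 cpm in knockout mice. Its log2 fold change of -0.13 (interval -0.38 to 0.13) was the largest negative value of the 38 genes, and DJ-1+/+ replicate 2 was lower than every other library. Without that library the value was -0.25 (edgeR unadjusted p = 0.0230). Ndufa4l2 had 0, 1, 1 and 0 counts in wild type mice and 3, 2, 1, 3 and 6 counts in knockout mice. These are 2 counts against 15 in all, a ratio of 5.14 in cpm with an exact counting interval from 1.20 to 46.3, and every DJ-1+/+ library was under the floor of 3 counts. Its unadjusted p was 0.0258 in edgeR's test and 0.0574 in DESeq2, and an exact two-sided permutation test gave p = 0.0556. Ndufa4l2 reached the count minimum only through its knockout counts, so the minimum itself favoured this direction. For that reason these tests cannot decide whether the gene differed between genotypes. The genotypes overlapped at 1 count.

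Of the non-coding loci named like the subunits, 1 carried counts at their level. Ndufb1-ps, which GENCODE M21 annotates as a non-coding transcript and RefSeq names Ndufb1, is the mouse locus named for a further distal subunit. It reached 150, 138, 147 and 137 cpm in wild type mice and 152, 145, 122, 146 and 140.3 cpm in knockout mice, a level like that of the subunits, with a log2 fold change of -0.01. The pseudogenes Ndufb4c, Ndufs6b, Ndufa11b and Ndufab1-ps had 31, 12, 2 and 0 counts over all libraries. Of the 36 subunits, 6 had a copy elsewhere that was at least 95% identical over at least 100 of the last 200 bases of the transcript. Most of these copies had few counts, but Gm15920, a processed pseudogene of Ndufa12, had 768 counts beside 1201 for Ndufa12 itself. How the counting divided reads between such pairs is not given in the sources used here, and the values of Ndufa12 and Ndufs5 are uncertain for that reason.

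Linkage to the sex chromosomes and to the targeted locus was looked at next, since Xist was low in DJ-1+/+ replicate 1 (0 counts), DJ-1+/+ replicate 4 (1 count) and DJ-1-/- replicate 5 (2 counts), and between 146 and 193 counts elsewhere. Ddx3y, on the Y chromosome, had 121, 113 and 152 counts in those libraries and 0 to 4 counts elsewhere. The share of libraries with Ddx3y in place of Xist thus differed between the genotypes. The X-linked subunit Ndufa1, in the proximal module, had 131, 114, 131 and 113 counts in wild type and 168, 155, 149, 125 and 172 counts in knockout mice (log2 fold change 0.11, interval -0.10 to 0.31). X-linked Ndufb11, in the distal module, had 111, 105, 113 and 116 counts against 135, 136, 124, 136 and 122 (log2 fold change 0.01). Neither gene separated the libraries with low Xist from the others, and with Xist as a covariate 28 of the 36 subunits were again above 0. On chromosome 4, Ndufs5 lies 27.2 Mb and Ndufb6 110.6 Mb from Park7. Ndufb6, a distal membrane subunit, had 122, 116, 123 and 110 counts in wild type and 136, 146, 119, 136 and 141 counts in knockout mice (log2 fold change -0.02, interval -0.18 to 0.14), and neither gene on that chromosome passed the test.

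Summed over the 36 subunits, expression was 5592, 5379, 5859 and 5329 cpm in wild type mice and 6024, 5743, 5425, 5815 and 5638 cpm in knockout mice. DJ-1-/- replicate 1 was highest and DJ-1+/+ replicate 4 lowest, and the genotypes overlapped. The means were 5540 ± 241 cpm (SD, n = 4) and 5729 ± 221 cpm (SD, n = 5), a difference of 3.42%. As a share of all counts this was 0.533% in the lowest library (95% Wilson interval 0.518% to 0.548%) and 0.602% in the highest (0.587% to 0.618%). Each of the 4 modules also overlapped between genotypes, with means that differed by 4.15% in the N module, 2.68% in the Q module, 4.36% in the proximal and 2.37% in the distal membrane module.

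Transcripts of the mitochondrial genome, which encode the proton-pumping core of the same enzyme, lay on the other side of 0. Of the 7 ND genes 6 had a log2 fold change below 0, with a median of -0.15, and their sum was 1233 ± 87.6 cpm (SD, n = 4) in wild type and 1123 ± 67.0 cpm (SD, n = 5) in knockout mice, with overlap. Mt-Nd4l had 43, 49, 42 and 44 counts against 45, 44, 34, 39 and 39, which in cpm did not overlap (log2 fold change -0.37, edgeR unadjusted p = 0.0175, adjusted p = 1.0). Counts of this gene were thus about equal in shallow and deep libraries. Mt-Nd5 was the most abundant at 405 cpm (log2 fold change -0.11) and mt-Nd3 the least at 24.8 cpm (-0.04). The ratio of nuclear to mitochondrial complex I counts was 4.12, 4.60, 4.77 and 4.52 in wild type mice and 4.98, 5.39, 4.76, 5.02 and 5.38 in knockout mice, with overlap of DJ-1+/+ replicate 3 and DJ-1-/- replicate 3. Among the mitochondrial genes for complex IV, mt-Co1 had 340 to 417 counts in every library, while mt-Co2, usually abundant as well, had 0 to 2 counts in 8 libraries and 126.1 cpm in DJ-1-/- replicate 1, and mt-Co3 had 0 to 16 counts. Mitochondrial levels in these files, and the ratio with them, are uncertain for that reason, and the part of depth in the ratio was not tested.

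**Figure D4:**
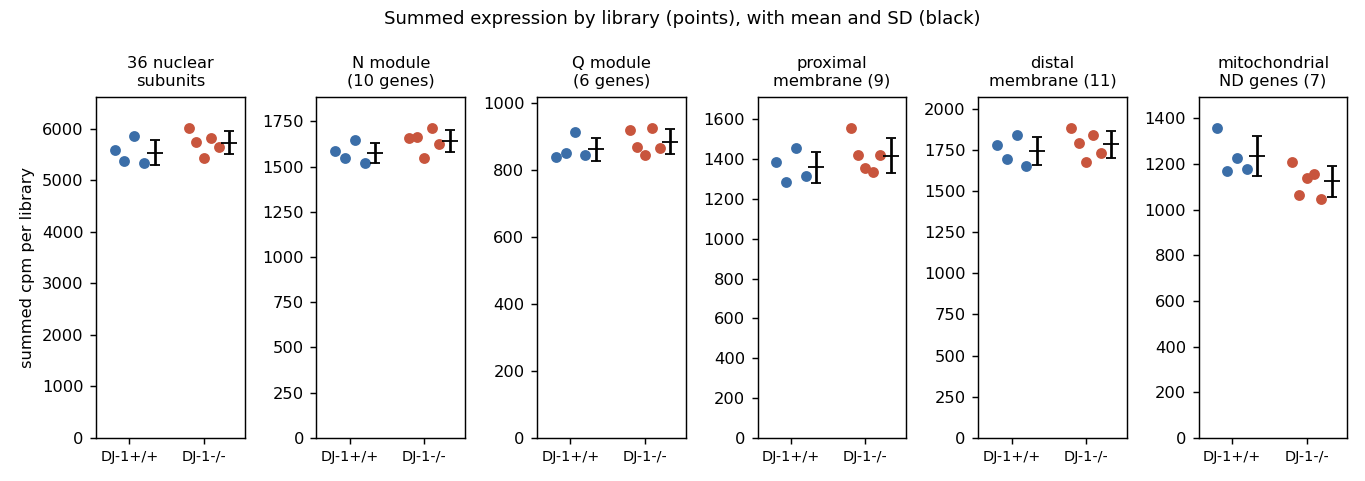
Summed cpm (y axis, from 0, a separate scale for each panel) of all 36 nuclear subunits, of each module and of the 7 mitochondrial ND genes by genotype (x axis), with 1 point for each library and the mean and SD in black. The genotypes overlap in every panel; the nuclear means are 5540 and 5729 cpm and the mitochondrial means 1233 and 1123 cpm.

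Medians of other gene lists around complex I were also close to 0, with wider ranges among their less abundant members. Of the 20 assembly factors listed, 19 were tested (Coa1 had no count), 12 were above 0, the median was 0.03 and edgeR gave 0 of them an unadjusted p under 0.05. Tmem126b, a factor for the membrane arm, was the most abundant at 113 cpm (log2 fold change -0.09), and Acad9, an assembly factor related to acyl-CoA dehydrogenases, the least at 1.72 cpm, under the floor. Tmem186, with 40.1 cpm, had the largest log2 fold change above the floor, 0.27 (interval -0.17 to 0.71). Of 41 nuclear subunits of complexes II to V, 30 were above 0 with a median of 0.06, beside 28 of 36 and 0.04 for the complex I genes. In that list Cox7b, a subunit of complex IV, had 149, 165, 193 and 170 counts against 233, 245, 200, 231 and 232 (log2 fold change 0.21, edgeR unadjusted p = 0.0172). Atp5j2, a subunit of ATP synthase, had 181, 184, 205 and 171 counts against 270, 285, 229, 222 and 220 (log2 fold change 0.18, edgeR unadjusted p = 0.0436). Both had an adjusted p of 1.0 and overlapped in cpm. The most abundant was Atp5a1 at 318 cpm and the least Atp5g2 at 4.97 cpm, whose log2 fold change of -0.53 (interval -1.51 to 0.44) was the largest in size of that list. Among 13 regulators of mitochondrial biogenesis, 7 were above 0, the median was 0.02, and 0 had an unadjusted p under 0.05. Their most abundant gene was the coactivator gene Ppargc1a at 140 cpm (log2 fold change -0.07) and the least Tfb2m at 16.5 cpm. Nrf1 was at -0.07 and Gabpa at -0.12. Yy1 did not overlap between genotypes in cpm, which held for 1.25% of all genes. It had 108, 114, 106 and 113 counts in wild type and 116, 123, 106, 112 and 123 in knockout mice (log2 fold change -0.15, edgeR unadjusted p = 0.101). An exact two-sided permutation test of its cpm gave an unadjusted p of 0.00794, the smallest that 4 mice against 5 allow.

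The tissue composition of the libraries varied beside these values. In bulk tissue fewer cells of a type and less RNA per cell cannot be told apart. Of 14 dopaminergic neuron markers, 13 had a log2 fold change above 0 (median 0.34). Before adjustment, 6 of the 14 fell below 0.05 by edgeR, all higher, beside 1.57% of all genes in that direction. These were Th, Slc6a3, Pitx3, Foxa1, Ret and Chrna6. Pitx3 had 1, 1, 0 and 0 counts in wild type mice and 3, 3, 1, 6 and 1 in knockout mice. It thus reached the count minimum only through its knockout counts, which favours that direction. The summed level of the 14 markers was 848, 1185, 728 and 653 cpm in wild type mice and 1015, 1135, 1069, 1233 and 902 cpm in knockout mice. Aldh1a1 was the most abundant, and Pitx3 was at 0 in 2 libraries. All 12 choroid plexus markers were below 0 (median -1.63). An unadjusted p under 0.05 was reached by 7 of the 12, beside 1.26% of all genes in that direction. Among these 7, Folr1 had 5, 0, 1 and 31 counts in wild type mice and 1, 2, 1, 1 and 0 in knockout mice. Aqp1 had 3, 0, 0 and 14 counts against 1, 0, 1, 2 and 0. Both thus reached the count minimum only through their wild type counts, which favours the lower direction. Sums of the choroid plexus markers were 424, 205, 170 and 977 cpm against 168, 289, 268, 181 and 243 cpm, so that DJ-1+/+ replicate 4 stood apart. Ttr led them, and Kl, Folr1, Aqp1 and Kcne2 were at 0 in some libraries. Of 11 cerebellar neuron markers 10 were below 0 (median -0.89). An unadjusted p under 0.05 was reached by 5 of the 11, all lower, beside 1.26% of all genes in that direction. Sums of the cerebellar markers were 1584, 698, 563 and 773 cpm against 595, 637, 694, 684 and 767 cpm. Zic1 led them, and Gabra6 and Pcp2 were at 0 in some libraries. DJ-1+/+ replicate 1 alone had high counts of Gabra6 (102) and Pcp2 (79). Both genes are among the 5, and both reached the count minimum only through that library, which favours the lower direction. Without DJ-1+/+ replicate 1, 30 of the 36 complex I subunits were above 0 (median 0.05), and without DJ-1+/+ replicate 4, 25 were (median 0.02).

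General neuron markers moved little, with 5 of 10 above 0 and a median of -0.01. Eno2, the neuronal enolase, had an unadjusted p of 0.0378 in edgeR's test (log2 fold change 0.14), and Nefl was the most abundant. For oligodendrocyte markers 3 of 10 (median -0.01, led by Mbp), for astrocyte markers 4 of 9 (median -0.01, led by Slc1a2), for microglia markers 7 of 10 (median 0.07, led by Cx3cr1) and for endothelial markers 1 of 7 (median -0.07, led by Flt1) were above 0, and 0 of these had an unadjusted p under 0.05. Th and the neuronal and glial markers were detected in every library of this labelled midbrain tissue. The part of tissue composition in the values of complex I genes was not tested.

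Spread within genotypes was close to counting error for almost all subunits. A dispersion index was taken as the squared deviation of counts from the depth-scaled mean of the genotype, relative to counting error, so that counting error alone gives 1 on average. Its median over the 36 subunits was 0.949, 21 were under 1, and 1, Ndufs5, was over 2 at 7.38. Ndufa12, a late-joining accessory subunit, was at 0.05, with 116, 128, 119 and 121 counts in wild type and 141, 157, 135, 137 and 147 counts in knockout mice. Its coefficient of variation of 2.08% was below the 8.66% that counting error gives at its depth. Over all 3165 tested genes with a mean between 80 and 130 counts the median index was 0.895, and this range held 10 of the 38 genes. Over the 1287 genes between 130 and 200 counts, where 24 of the 38 genes lay, it was 1.02, and over the 296 genes between 200 and 300 counts it was 1.44. The median log2 fold change in these ranges was -0.03, 0.01 and 0.02. What keeps the spread of some subunits under counting error was not tested.

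**Figure D5:**
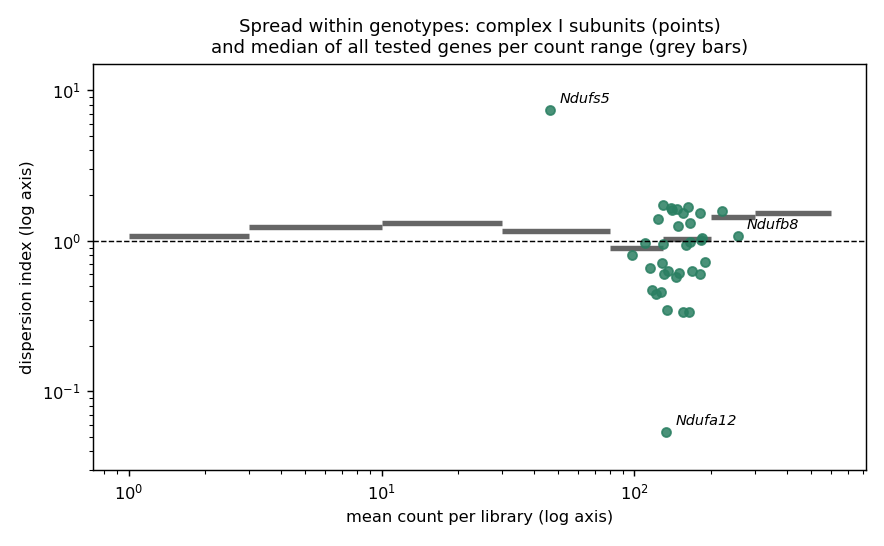
Dispersion index (y axis, log scale) against mean count per library (x axis, log scale) for the 36 complex I subunits (points), with grey bars for the median of all tested genes in each count range and a dashed line at 1, the value of counting error alone. Ndufs5 is highest at 7.38 and Ndufa12 lowest at 0.05, and the other subunits lie between 0.33 (Ndufv2) and 1.72 (Ndufa7).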

How the data were processed

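Files were deposited by mouse as UMI counts of genes, whole numbers that the authors did not normalize, with genes at 0 not listed. Per the labels, the submitters' processing notes name fastp 0.20.0, STAR 2.7.3a, Subread featureCounts 2.0.0, UMI-tools 1.0.0 and GRCm38. Annotation and use of strand are not given in the sources used here. Genes not listed were set to 0. In all, 26602 genes had a count, and symbols and positions were taken from GENCODE M21 (GRCm38), which holds 26576 of them. Library totals ran from 841974 to 1098125.

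A minimum of 10 counts over the 9 libraries left 18127 genes. These were fitted in edgeR 4.0.16 (TMM, estimateDisp, glmQLFit with package defaults, glmQLFTest, genotype as the only term) in R 4.3.3, with Benjamini-Hochberg adjustment over all of them. Standard errors are the log2 fold change divided by the square root of F. Cpm of single genes were compared by exact two-sided permutation tests (scipy 1.17.1). Scripts were tested on simulated counts. Copies were sought with blastn.

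Groups and replicate numbers come from the sample labels. Libraries of 1 genotype differed by a chi-square statistic per degree of freedom of 1.07 to 2.27, so none was treated as a copy. Values in every library are given for Park7, members with an unadjusted p under 0.05, members at the extremes of fold change and level, and core, X-linked and chromosome 4 subunits. For copies and for genes of other lists such values are given for some genes only. Single values of 1 core subunit are not reported here, and it enters counts, medians and sums only. Ndufa12, Xist, Ndufv3 and others outside this rule were picked after their values were seen. Members and lists were chosen with earlier results of these data known. Alternatives were RLE factors, library totals, other count minimums (1 and 50), DESeq2 1.42.0, thinned counts, Xist as a covariate, a replicate block, and each library left out in turn. The newer dispersion method of glmQLFit and TMM factors from genes under 50 counts per library were added after seeing the data.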

Additional observations from a re-analysis of the deposited data

Results flagged for a closer look

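Among 110 groups of 4 or 5 libraries (each gene, module and sum in each genotype), 3 held 1 library far from the others by Dixon's criterion, where chance gives about 5.5 (1 in 20). Ndufv2 in DJ-1+/+ replicate 3 was at 184 cpm, from 158 counts, while the other 3 DJ-1+/+ libraries were between 161 and 163 cpm. Summed over the Q module, the same library was at 913 cpm and the others between 839 and 849 cpm. Ndufb11 in DJ-1+/+ replicate 2 was at 119 cpm, from 105 counts, and the others between 131 and 132 cpm.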

How the results depend on the processing

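The median log2 fold change of the subunits stayed between -0.02 and 0.07 under every alternative run, and within 0.08 of the value reported. The lowest adjusted p of any member in any setting was 0.860, in edgeR's test of every gene with at least 1 count. At an unadjusted p under 0.05, 2 of the 38 genes passed, Ndufb5 and Ndufa4l2. Ndufa4l2 reached the count minimum only through its knockout counts, which favours its inclusion in this number. The number was 1 with at least 50 counts (Ndufa4l2 was then not tested), with DESeq2, with the replicate block, and with TMM factors from genes under 50 counts. With each library left out it lay between 0 (without DJ-1+/+ replicate 4) and 4 (without DJ-1+/+ replicate 3, when Ndufa3 and Ndufa6 were added). Ndufa4l2 was lost with DESeq2, the replicate block (edgeR unadjusted p = 0.134), and without DJ-1+/+ replicate 1, DJ-1+/+ replicate 4 or DJ-1-/- replicate 5. Of the 36 subunits, 15 kept their sign in every alternative, 14 above and 1 below 0. Genes with an adjusted p under 0.05 numbered 1, but 36 when every gene with a count was tested and 8 with the replicate block, and 1 to 2 with each library left out. At an unadjusted p under 0.05 there were 513 genes, 802 when every gene was tested, 235 with DESeq2, and between 338 and 732 with each library left out (lowest without DJ-1-/- replicate 2, highest without DJ-1+/+ replicate 2). The replicate block rests on numbers that do not pair the mice, since deviations of same-numbered libraries correlated at 0.28, 0.05, -0.09 and -0.18. The planned fit with legacy glmQLFit is the package default and so the same fit. Depth limits genes near the floor of 3 counts, among them Ndufa4l2, Acad9 and Pitx3.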
